A study of Mus musculus with 20 samples.

Results

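The cells compared here were the 10 Fgf4-negative cells among 20 single cells taken in the study from inner cell masses of C57BL/6 blastocysts, isolated from mice at embryonic day 3.5. They were chosen by their deposited intensity at an Fgf4 probe set, which was 500 or less in a cell called Fgf4-negative. Of these 10 cells, 4 had low levels of mitotic transcripts (cells 4, 8, 17 and 20, called mitotic-low) and 6 did not (cells 3, 5, 6, 10, 11 and 15, called the other Fgf4-negative cells), where the number is the replicate number in the labels. Both sets were selected on these measured values and are not groups of the study, whose labels put all 20 cells in 1 untreated wild-type group. Mitotic and Fgf4 levels are therefore given as descriptions only, and the question asked was whether the sets also differed in other genes and in the quality of their arrays. Per the series design, blastocysts were dissociated with trypsin, 55 cells were picked, and 50 of them passed a PCR screen as Oct4-positive and Cdx2-negative. No label links a cell to its embryo, so p-values measure the spread between these 10 cells only, and cells of the same embryo may be among them.

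The inner cell mass gives rise to the epiblast, from which the embryo proper forms, and to the primitive endoderm, a layer outside the embryo proper that lines the blastocoel. Epiblast precursors secrete Fgf4, and primitive endoderm precursors receive it through Fgf receptors, express Gata6, Gata4, Sox17 and Pdgfra, and lay down a basement membrane of laminin and type IV collagen. Mitotic transcripts accumulate in the G2 and M phases of the cell cycle and are degraded or shut off as a cell divides, so their level varies within any dividing population. Proteins bound for the basement membrane are folded in the endoplasmic reticulum (ER) by chaperones such as Hspa5, whose genes respond to the load of unfolded protein through the transcription factors Atf6 and Xbp1.

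A pair of gene groups recurs below, the mitotic genes on which the sets were selected and the ER folding genes, and promoter windows of each are shown. The windows are those of RefSeq gene starts (GRCm38.p6), from 250 bases before the start to 50 bases after it, written 5′ to 3′ on the strand of the gene. In the ER genes the capitals mark the ER stress response element, searched as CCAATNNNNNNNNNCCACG on both strands, which contains a CCAAT box at one end. It was present in 7 of 13 matched ER folding genes of 14 (Calr, Canx, Creld2, Dnajc3, Hsp90b1, Hspa5 and Pdia6) and in 39 of 32851 windows in all (0.119%). Counted from the base of the gene start, the first base of the match lay at position -65 in Hspa5, -126 in Creld2 (on the opposite strand) and -105 in Dnajc3.
Hspa5 (chr2:34771840-34772139, + strand): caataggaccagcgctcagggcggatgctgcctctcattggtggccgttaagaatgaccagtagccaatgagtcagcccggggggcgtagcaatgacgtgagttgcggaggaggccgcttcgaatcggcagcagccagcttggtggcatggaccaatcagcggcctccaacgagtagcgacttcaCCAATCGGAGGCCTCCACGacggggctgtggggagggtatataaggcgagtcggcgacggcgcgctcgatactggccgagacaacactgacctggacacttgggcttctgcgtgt
Creld2 (chr15:88819396-88819695, + strand): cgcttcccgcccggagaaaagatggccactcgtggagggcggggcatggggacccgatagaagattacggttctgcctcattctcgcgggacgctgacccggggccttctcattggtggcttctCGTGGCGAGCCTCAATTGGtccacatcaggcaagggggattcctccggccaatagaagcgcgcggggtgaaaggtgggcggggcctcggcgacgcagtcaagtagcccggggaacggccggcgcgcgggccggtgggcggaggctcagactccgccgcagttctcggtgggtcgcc
Dnajc3 (chr14:118937682-118937981, + strand): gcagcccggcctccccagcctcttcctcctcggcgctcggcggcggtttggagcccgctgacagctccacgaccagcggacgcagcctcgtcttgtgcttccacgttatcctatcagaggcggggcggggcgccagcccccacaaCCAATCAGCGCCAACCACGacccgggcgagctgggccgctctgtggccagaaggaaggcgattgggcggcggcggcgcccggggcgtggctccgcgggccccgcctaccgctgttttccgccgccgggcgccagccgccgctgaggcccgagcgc

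In the mitotic genes the capitals mark the element TTTGAA, the core of the cell cycle genes homology region (CHR), searched on both strands. It was present in 14 of 20 matched genes of the mitotic list below and in 17.9% of all windows. All 14 also held at least 1 CCAAT box, searched as CCAAT on both strands, and 6.95% of all windows held both elements. The match began at position -29 in Ube2c, and in Top2a matches began at -179 and -23. A match is a description of the letters in these windows, and a window without a match says nothing about the factors that may act there.
Ube2c (chr2:164769679-164769978, + strand): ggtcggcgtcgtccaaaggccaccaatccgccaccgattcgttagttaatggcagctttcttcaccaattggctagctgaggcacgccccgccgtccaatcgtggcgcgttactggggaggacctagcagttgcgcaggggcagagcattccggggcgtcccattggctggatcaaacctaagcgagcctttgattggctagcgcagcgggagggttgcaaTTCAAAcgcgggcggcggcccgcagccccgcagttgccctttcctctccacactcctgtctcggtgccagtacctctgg
Top2a (chr11:99024140-99024439, - strand): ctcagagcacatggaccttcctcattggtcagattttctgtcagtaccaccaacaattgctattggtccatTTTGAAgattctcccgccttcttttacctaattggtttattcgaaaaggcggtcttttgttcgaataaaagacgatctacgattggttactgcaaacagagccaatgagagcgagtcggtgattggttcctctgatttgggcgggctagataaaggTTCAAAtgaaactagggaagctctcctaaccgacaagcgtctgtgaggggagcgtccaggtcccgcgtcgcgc

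Levels are given as log2(intensity + 8.49) after quantile normalisation over the 20 arrays, with 3.25 the lowest value possible. A gene was taken as detected in a cell when it exceeded the floor of that array, set at the 95th percentile of 144 probe sets for tissue-specific genes foreign to the blastocyst, which lay between 6.45 and 7.0 in the 10 cells. Values are mean ± SD over the 4 mitotic-low and the 6 other cells, and a difference is mitotic-low minus other on this log2 scale. Unless stated otherwise, p-values are those of limma, which was fitted to the 10 cells over the 9167 genes that were above the floor in at least 3 of them and lay outside the mitotic list.

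Fgf4, the secreted growth factor of the epiblast lineage, had deposited intensities between 1.0 and 5.37 in the 10 cells, with the highest in cell 15. The nearest cell outside the limit was cell 12, at 1568. The score that describes the sets here was the mean of 24 mitotic genes, each centred on the 20 cells. It was -3.03 in cell 4, -2.04 in cell 8, -1.43 in cell 20 and -0.77 in cell 17. Among the other Fgf4-negative cells it was -0.40 in cell 5, -0.24 in cell 11, 0.09 in cell 10, 0.20 in cell 3, 0.79 in cell 15 and 0.83 in cell 6. The step between cells 17 and 5 was therefore the smallest gap between the sets, and cell 17 was the least separated of the mitotic-low cells. With this list cell 17 did not lie below -1, the limit at which the score was read, so the score did not itself form the sets. Among the Fgf4-positive cells, cell 16 scored -0.45.

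Ube2c, the ubiquitin-conjugating enzyme of the anaphase-promoting complex, was 7.19, 10.60, 8.83 and 8.17 in cells 4, 8, 17 and 20, and between 11.32 and 12.27 in the other cells. No mitotic-low cell reached the range of the others. Top2a, the topoisomerase that untangles chromosomes before they separate, was 3.25 and 4.2 in cells 4 and 8 but 10.42 and 11.13 in cells 17 and 20, against 10.29 to 12.08 in the others. The sets therefore overlapped in Top2a, and only cells 4 and 8 lacked it. Mki67, a proliferation antigen, divided the cells in the same way, with 3.65 and 3.25 in cells 4 and 8 and 10.13 and 8.91 in cells 17 and 20. Aurkb, the kinase of the chromosomal passenger complex, was below the floor in all 4 mitotic-low cells (3.25 in 3 of them and 5.10 in cell 17) and above it in all 6 others. Nusap1, a spindle protein, was also below the floor in the 4 cells (4.06 to 4.48) and above it in the 6 (7.14 to 9.92). Plk1, a mitotic kinase, was 6.84 ± 1.38 against 10.52 ± 0.72, and Cdc20, an activator of the anaphase-promoting complex, 9.84 ± 0.93 against 11.53 ± 0.61. Not every mitotic transcript was low: Ccnb2, a cyclin of mitotic entry, was 10.84 ± 0.58 against 11.05 ± 0.34 with overlapping sets. Of the 24 genes, 24 had the lower mean in mitotic-low cells, with a median difference of -1.78, and 6 did not overlap. Of a wider list of 125 mitotic genes above the floor in at least 3 of the 10 cells, 110 had the lower mean, with a median of -0.91. These counts follow from how the cells were chosen.

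**Figure D1:**
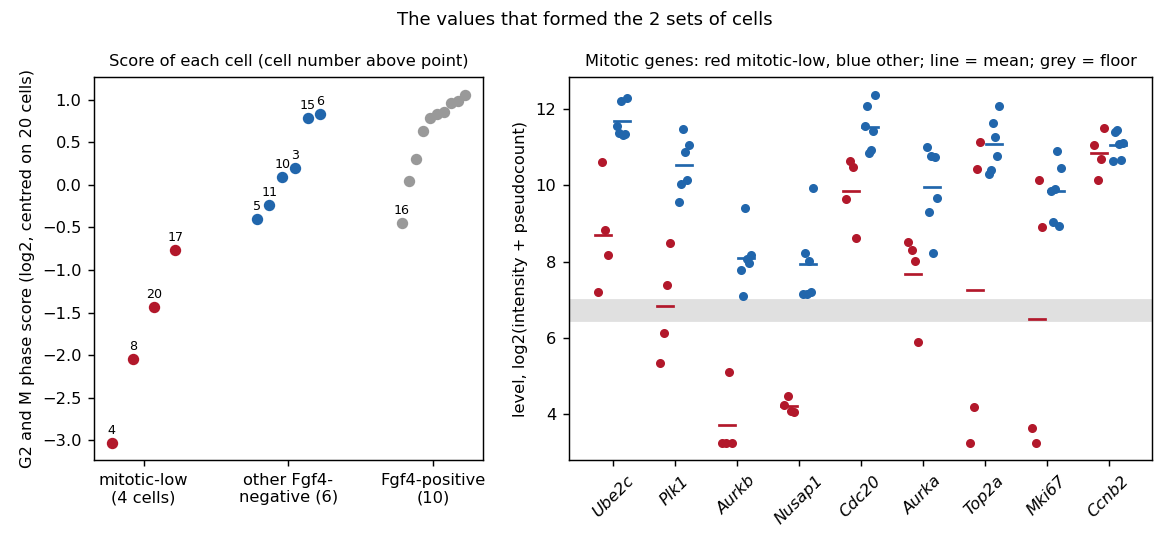
Left, the mitotic score of each cell (log2, centred on the 20 cells) by set, with cell numbers above the points of the Fgf4-negative cells and of Fgf4-positive cell 16. Right, levels of 9 mitotic genes in the 4 mitotic-low (red) and 6 other Fgf4-negative cells (blue), with lines at the means and the range of the floors in grey. Ube2c, Plk1, Aurkb, Nusap1 and Cdc20 do not overlap, while Top2a and Mki67 are low in 2 of the 4 red cells only and Ccnb2 overlaps.

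Outside the mitotic genes, few genes separated the sets. No gene was higher in mitotic-low cells at an adjusted p under 0.05 (0 of 9167, 0.0%), and 2 genes were lower (0.0218%). At an unadjusted limma p under 0.05, 280 genes (3.05%) were higher and 408 (4.45%) lower. With no filter on low values this order turned, with 628 genes higher and fewer lower. The larger number on the lower side therefore did not hold without the filter. The sets did not overlap in 68 genes that were higher (0.742%) and 67 that were lower (0.731%). The dimmer set was wholly above the floor in 27 of the 68 and 23 of the 67. It was wholly under the floor in 10 of the 68 and 22 of the 67. The median difference over all tested genes was -0.009, with the higher mean in mitotic-low cells in 49.3% and the lower in 50.7% of them. The counts at the adjusted threshold moved with single cells: 4 genes were higher and 13 lower without cell 8, 1 and 17 without cell 17, 3 and 3 without cell 3, 0 and 7 without cell 5, 0 and 6 without cell 11, 0 and 5 without cell 20, 1 and 3 without cell 15, 1 and 2 without cell 4 and 1 and 2 without cell 10. Alg13 passed in 17 of 19 and Rsrc1 in 17 of 18 alternative settings in which they were tested. These settings share most of the same cells and values, so these counts add no support for either gene.

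The genes that passed were Alg13 and Rsrc1. Alg13 encodes a subunit of the enzyme that adds the second sugar to the lipid-linked precursor of N-glycans. It was 3.25, 3.25, 3.26 and 3.25 in cells 4, 8, 17 and 20, and 9.57, 9.45, 7.65, 9.17, 9.30 and 7.70 in cells 3, 5, 6, 10, 11 and 15. All 4 mitotic-low cells were thus at or near the lowest value possible and all 6 others were above the floor, a difference of -5.55 (SE 0.47, limma adjusted p = 0.00264). Set against the floors of the 4 arrays, Alg13 was at least 4.37-fold lower. Rsrc1, which encodes a splicing-related protein, was 3.25, 3.25, 3.69 and 3.84 in the 4 cells and 7.60, 8.84, 8.17, 7.13, 8.30 and 8.41 in the 6. It was likewise below the floor in all 4 and above it in all 6, a difference of -4.57 (SE 0.41, limma adjusted p = 0.00264) and at least 2.64-fold lower. Both calls were lost when values under the floor were raised to it, with differences of -2.13 (adjusted p = 0.454) and -1.40 (adjusted p = 0.511). With a filter on the mean level, 0 genes were lower. Both genes entered the test only through the set in which they were detected, and the mitotic-low values behind their p have no measured level. The same holds for genes named below that were detected in 1 set only, such as Tfap2c, Arhgef5 and Fzd7. In the 10 Fgf4-positive cells, Alg13 was above the floor in 4 and Rsrc1 in 8.

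The next genes on the lower side did not pass. Tfap2c, a transcription factor of the trophectoderm and of germ cells, was between 3.34 and 3.59 in the 4 mitotic-low cells. In the others it was 9.64 in cell 3, 5.33 in cell 5, 10.70 in cell 6, 9.72 in cell 10, 8.16 in cell 11 and 9.15 in cell 15. It was thus below the floor in all mitotic-low cells and above it in 5 of 6 others and in 8 of 10 Fgf4-positive cells (difference -5.31, limma adjusted p = 0.103, at least 4.31-fold lower). Atg4d, a protease of autophagy, was below the floor in the 4 cells and above it in 5 of the 6 (adjusted p = 0.052). Hal, a histidine-degrading enzyme (adjusted p = 0.064), and Kdsr, an enzyme of sphingolipid synthesis (adjusted p = 0.0827), were above the floor in the same numbers of cells. Caap1, an apoptosis inhibitor, was above it in 0 and 4 cells (adjusted p = 0.0869), and 2500002B13Rik in 0 and 6 (adjusted p = 0.064).

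Tmem231 and Ubac1 differed while being above the floor in all 10 cells. Tmem231, a component of the ciliary transition zone, was 9.0, 9.70, 8.08 and 9.25 in cells 4, 8, 17 and 20 and between 10.69 and 11.34 in the others. The sets did not overlap, with a difference of -2.05 (SE 0.31, limma adjusted p = 0.0711). Ubac1, a subunit of a ubiquitin ligase, was 9.23 ± 0.52 against 11.02 ± 0.35, again without overlap (adjusted p = 0.0869). Atp5j, a subunit of the mitochondrial ATP synthase, differed little but evenly, at 12.17 ± 0.05 against 12.48 ± 0.12 without overlap (adjusted p = 0.28). Some genes on this side belong to mitosis although they were not in the list that was set aside, so they are not independent of how the cells were chosen. They were picked out after their values were seen. Anapc2, a subunit of the anaphase-promoting complex, was 8.76 ± 0.57 against 10.20 ± 0.27 (adjusted p = 0.292), and Pcnt, a scaffold of the centrosome, was between 5.92 and 8.83 against 9.57 to 10.40 (adjusted p = 0.316), both without overlap.

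On the higher side the gene with the smallest p was Arhgef5. It was 8.65, 7.41, 6.98 and 7.60 in cells 4, 8, 17 and 20, and between 4.71 and 5.01 in the others. All 4 mitotic-low cells were above the floor and none of the 6 others was (difference 2.80, SE 0.41, limma adjusted p = 0.0711), which makes it at least 1.91-fold higher. Fzd7, a Wnt receptor, was 7.85, 7.09, 6.56 and 8.12 in the 4 cells and between 3.25 and 3.91 in the 6, so it was also detected in all of one set and in none of the other (adjusted p = 0.104, at least 1.6-fold higher). Mllt1, a component of the transcription elongation machinery, was above the floor in 4 and 0 cells (adjusted p = 0.28, at least 2.04-fold higher).

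Tafa5, a secreted protein, was between 7.85 and 9.39 in the 4 cells and above the floor in cell 15 only (6.67) among the others, with an adjusted p of 0.0755. Zfp507 was above it in all 4 and, among the others, in cell 3 only (7.81, adjusted p = 0.134). Lrch3 was above it in all 4 and in cell 10 only (8.08, adjusted p = 0.161). Zfp507 and Lrch3 were detected in 6 and 8 of the 10 Fgf4-positive cells. Detected in all 10 cells were Dynll1, a dynein light chain, at 13.23 ± 0.04 against 12.93 ± 0.09 (adjusted p = 0.10), Acp5, an acid phosphatase, at 9.71 ± 0.36 against 7.84 ± 0.50 (adjusted p = 0.156), and Atxn10, at 12.14 ± 0.17 against 11.45 ± 0.26 (adjusted p = 0.28). None of these sets overlapped. Myo19, a mitochondrial myosin, was 9.11 ± 0.51 against 6.71 ± 0.96 (adjusted p = 0.292).

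**Figure D2:**
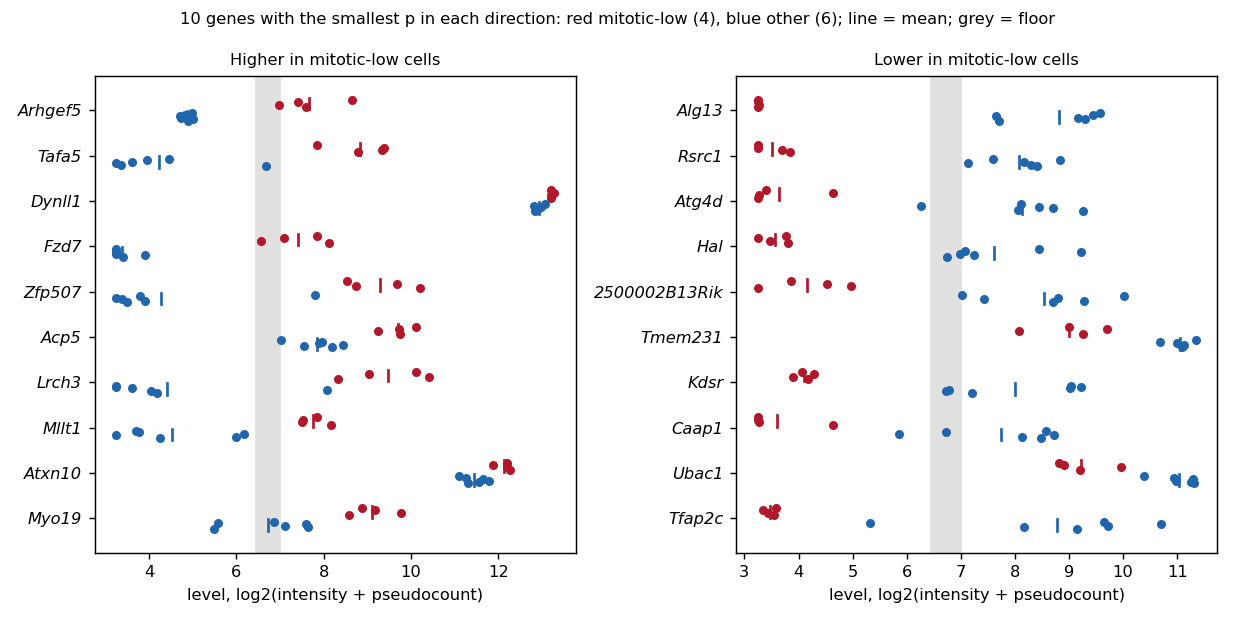
Levels of the 10 genes with the smallest p on each side in the 4 mitotic-low (red) and 6 other Fgf4-negative cells (blue), on the log2(intensity + pseudocount) scale, with lines at the means and the range of the floors in grey. Alg13 and Rsrc1 are the only genes that pass the adjusted threshold. For most genes shown, one set lies at or below the floor, while Dynll1, Acp5, Atxn10, Tmem231 and Ubac1 lie above it in all 10 cells.

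The endoderm identity of both sets was checked with 14 measured transcription factors and receptors of the primitive endoderm. Between 7 and 10 of them were above the floor in each mitotic-low cell and between 7 and 10 in each other cell. The log2 of their summed level was 14.13 to 14.48 in mitotic-low cells and 13.21 to 14.23 in the others. By this sum cells 3, 5, 6 and 10 were below every mitotic-low cell and cell 11 was level with the lowest, cell 17. A score that weights the 9 tested members equally, centred on the 10 cells, ranked the cells differently. It was 0.48, -0.31, -0.18 and 1.0 in cells 4, 8, 17 and 20. In cells 3, 5, 6, 10, 11 and 15 it was 0.1, -0.08, -1.57, -0.16, 0.39 and 0.33. By this score cells 8 and 17 lay below all the others except cell 6. Dab2 was above the floor in 0 cells. Gata6, Sox17 and Pdgfra were above the floor in all 10 cells at similar means. Gata6 was 11.60 ± 0.37 against 11.51 ± 0.45 (difference 0.10), a sign that turned with the mean of all its probe sets. Sox17 was 11.73 ± 0.68 against 11.95 ± 0.37 (difference -0.22), with 10.70 in cell 4 and 12.05 to 12.08 in the other mitotic-low cells. Pdgfra, a growth factor receptor, was 12.24 ± 0.12 against 12.06 ± 0.29 (difference 0.17, -0.01 with the mean of its probe sets). The 3 genes thus each differed by less than the larger SD of the sets.

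Gata4 showed a tighter level in the mitotic-low cells. It was 10.45, 10.33, 10.54 and 10.28 in cells 4, 8, 17 and 20, and 10.07, 9.56, 7.37, 9.16, 10.37 and 10.03 in cells 3, 5, 6, 10, 11 and 15. The lowest values were those of cells 6 and 10, and the sets overlapped in cell 11 (difference 0.97, SE 0.54, limma adjusted p = 0.739). Fgfr2, an Fgf receptor, was between 10.20 and 11.61 in the mitotic-low cells and between 9.67 and 10.65 in 5 of the others. Cell 6 had 4.22, and the difference between the sets was 1.64 (adjusted p = 0.784). Cubn, an endocytic receptor of the visceral endoderm, was 11.53 ± 0.83 against 10.39 ± 1.10 (adjusted p = 0.718). Foxq1, a forkhead factor, was split within the mitotic-low cells, with 10.37 and 11.11 in cells 4 and 20 and 3.25 and 3.26 in cells 8 and 17. Among the others it was 3.25 in cell 6 and 7.0 to 8.54 elsewhere (difference -0.31, 0.80 with values raised to the floor). Fgfr4 (7.25 ± 0.10 against 7.09 ± 0.15) and Lrp2 (6.37 ± 1.70 against 6.29 ± 0.91) lay near the floor. Of the 9 tested factors and receptors 7 had the higher mean in mitotic-low cells (49.3% of all tested genes did). The median difference was 0.16, and none passed.

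Markers of the other cell types of the blastocyst did not separate the sets as lists. Of 16 measured epiblast markers, 7 to 11 were above the floor in a mitotic-low cell and 7 to 11 in another cell, and the log2 of their summed level ranged from 13.32 to 14.03 and from 13.50 to 14.34. Fgf4, Nodal, Otx2, Enox1 and Fgf5 were above the floor in 0 of the 10 cells. With 11 of them tested, 4 were higher in the mean in mitotic-low cells and the median difference was -0.26. That sign turned without cell 4 (0.06), without cell 20 (0.03) and without cells 6 and 10 (0.07, with 7 of 11 higher). Without cell 8 the median was -0.81. Gdf3, a ligand of the TGF-beta family, was 8.46 ± 0.64 against 9.54 ± 0.31 without overlap (difference -1.09, limma adjusted p = 0.544), and Klf5 was 11.90 ± 0.63 against 11.67 ± 0.52. Nanog was 3.25, 9.18, 7.98 and 8.18 in cells 4, 8, 17 and 20 and ran from 3.44 in cell 15 to 11.83 in cell 6. Klf2 was above the floor in cells 8 (9.10) and 17 (8.34) of the mitotic-low set and in cells 6 (10.49) and 10 (8.47) of the other, so its presence cut across the sets.

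Of 18 measured trophectoderm markers, 5 to 8 were above the floor in a mitotic-low cell and 6 to 10 in another cell, and the log2 of the summed level ranged from 13.98 to 14.15 and from 13.91 to 14.10. Elf5, Gata3, Krt7, Atp12a and Lgals3 were above the floor in 0 cells. Cdx2, for which the cells were negative by PCR, read above the floor in 4 of 4 and 6 of 6 cells by the probe set used here. Of 10 tested, 6 had the higher mean, with a median of 0.05. Tead4 was 8.47 ± 0.89 against 6.96 ± 1.64 (adjusted p = 0.739). Tfap2c, described above, had the lower mean (difference -5.31, limma adjusted p = 0.103) and was the only tested member without overlap. Krt8 was above the floor in 1 of 4 and 5 of 6 cells, and Tspan8 in 2 of 4 and 0 of 6. Of 17 measured oocyte genes, which a polar body attached to a cell would bring in, 1 to 3 were above the floor in a mitotic-low cell and 1 to 4 in another cell, with summed levels of 9.97 to 11.40 and 9.70 to 10.79. Zp1, Zp2, Zp3, Bmp15, Mos and 6 others were above it in 0 cells. Only 4 oocyte genes were tested, 2 of them with the higher mean and a median of 0.33. Ooep was 9.08 ± 2.86 against 8.15 ± 1.67, and Nlrp5 4.11 ± 1.33 against 6.07 ± 2.05.

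A further list held ER folding genes and targets of Atf4, the transcription factor of the amino acid response. Of its 25 tested members, 22 had the higher mean in mitotic-low cells (49.3% of all tested genes did), and the median difference was 0.86. Over the 29 measured members, with no filter on low values, 25 had the higher mean and the median was 0.50, against 52.8% and a median of 0.025 over all genes. Raising values to the floor gave a median of 0.50. At an unadjusted limma p under 0.05, 6 members were higher (3.05% of all tested genes were) and 0 lower, no member passed the adjusted threshold and no member's sets were without overlap. In a split made after the values were seen, 14 of 14 ER folding genes had the higher mean with a median of 1.13. Their mean per cell, centred on the 10 cells, was 2.09, 0.4, 0.13 and 1.27 in cells 4, 8, 17 and 20. In cells 3, 5, 6, 10, 11 and 15 it was 0.2, -0.55, -1.19, -1.68, -0.54 and -0.12. Cell 17 thus lay below cell 3, and the largest values apart were those of cells 4 and 20 and of cells 6 and 10. Of the Atf4 targets 8 of 11 had it, with a median of 0.12, and the parts were not tested against each other.

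Pdia4, a disulfide isomerase, was 10.16, 7.02, 10.21 and 10.90 in cells 4, 8, 17 and 20, and 8.24, 4.28, 5.91, 3.25, 6.85 and 5.34 in cells 3, 5, 6, 10, 11 and 15. It was above the floor in all 4 and in 2 of 6, with overlap through cells 8 and 3 (difference 3.93, SE 1.04, limma adjusted p = 0.444, and 2.54 with values raised to the floor). Dnajc3, an inhibitor of the eIF2-alpha kinases, was 10.65, 8.71, 3.85 and 11.09 in the 4 cells, and above the floor among the others only in cell 15 (8.33). Cell 17 thus lacked it, and the difference was 4.23 (SE 1.51, adjusted p = 0.566). Creld2, a folding factor of the ER, was 11.43, 9.63, 8.31 and 10.38 in the 4 cells, and 8.73, 9.16 and 9.06 in cells 3, 11 and 15 with cells 5, 6 and 10 under the floor (adjusted p = 0.615).

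Hspa5, the main ER chaperone of the Hsp70 family, was 12.65, 12.16, 12.64 and 12.60 in cells 4, 8, 17 and 20 and 12.18, 12.03, 12.08 and 12.15 in cells 3, 5, 11 and 15. Cells 6 and 10 had 10.42 and 10.53, and the difference over all cells was 0.95 (SE 0.40, limma adjusted p = 0.637). Cells 6 and 10 were also low in Manf, a secreted ER protein (10.39 and 3.87, against 10.74 to 11.93 in the remaining 4 others and 11.73 to 12.69 in mitotic-low cells). Hsp90b1 was 10.52 in cell 6 and 11.40 in cell 10, against 11.90 to 12.35 in the remaining 4. Without cells 6 and 10, left out after their values were seen, 13 of the 14 folding genes still had the higher mean and the median was 0.71 in place of 1.13. For the whole list these values were 21 of 25 and 0.43. Leaving out cell 4, the mitotic-low cell with the highest score of this list, gave 21 of 25 and 0.39.

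Sdf2l1, an ER chaperone cofactor, was 8.40 ± 0.47 against 7.54 ± 0.39 (adjusted p = 0.574), and Pdia6, another isomerase, 10.37 ± 1.21 against 9.25 ± 0.79 (adjusted p = 0.725). Xbp1, the transcription factor of the unfolded protein response, was 9.96 ± 1.73 against 9.31 ± 1.46, a difference of 0.65 within the spread between cells. Among the Atf4 targets, Slc7a5, an amino acid transporter, was 9.47 ± 0.87 against 8.23 ± 0.62 (adjusted p = 0.587). Ddit3, a stress-induced factor, was above the floor in cell 4 (8.32), cell 6 (8.91) and cell 11 (7.82) only, and Atf4 itself was 11.31 ± 0.28 against 10.98 ± 0.84. In the Fgf4-positive cells Hspa5 was 11.71 ± 0.39 and Pdia4 6.22 ± 1.64, so for Hspa5 and Pdia4 the means of the Fgf4-positive cells lay nearer to those of the other Fgf4-negative cells.

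**Figure D3:**
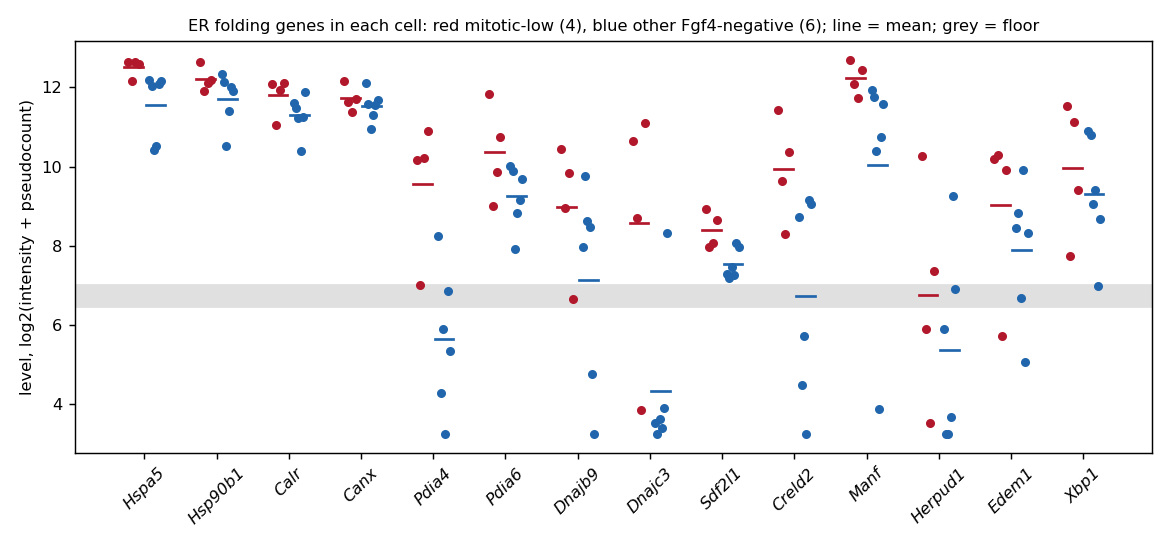
Levels of the 14 ER folding genes in each of the 4 mitotic-low (red) and 6 other Fgf4-negative cells (blue), on the log2(intensity + pseudocount) scale, with lines at the means and the range of the floors in grey. The red mean is above the blue mean in all 14, the sets overlap in all 14, and 2 blue points of Hspa5 (cells 6 and 10) lie apart from the rest.

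Genes of the basement membrane, the main product of the primitive endoderm, had the higher mean in mitotic-low cells for 16 of 19 tested members (49.3% of all tested genes did), with a median difference of 0.44 (0.35 with values raised to the floor). At an unadjusted limma p under 0.05, 4 were higher (3.05% of all tested genes were) and 0 lower, and none passed the adjusted threshold. P4hb, the prolyl hydroxylase subunit and disulfide isomerase that helps fold collagen, was 12.51, 11.83, 12.01 and 12.32 in cells 4, 8, 17 and 20, and between 10.24 and 11.77 in the others. It was the only member whose sets did not overlap (difference 0.85, SE 0.29, adjusted p = 0.564). Lamb1, a laminin chain, was 12.45 ± 0.26 against 11.60 ± 0.61 (adjusted p = 0.564), with the lowest level in cell 6 (10.55). Colgalt1, a collagen galactosyltransferase, was 10.65 ± 0.83 against 9.32 ± 0.67 (adjusted p = 0.564). Hspg2, the proteoglycan perlecan, was 9.83, 8.46, 6.07 and 10.41 in the 4 cells, and above the floor in cells 11 (7.32) and 15 (8.85) only among the others (adjusted p = 0.571). The structural genes Lama1, Col4a1 and Sparc each differed by less than the larger SD of the sets. Lama1 was 12.04 ± 0.66 against 11.27 ± 1.03 and Col4a1 11.41 ± 0.90 against 11.03 ± 0.61. Sparc was 12.31 ± 0.51 against 12.08 ± 0.22. Lama5, a laminin chain of other tissues as well, had the lower mean (8.12 ± 0.73 against 8.74 ± 0.60). Without cells 6 and 10, 15 of 19 had the higher mean and the median was 0.24.

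Markers of later visceral and parietal endoderm gave a mixed picture, with 9 of 14 tested members higher in the mean and a median of 0.21. Thbd, which encodes thrombomodulin, the thrombin receptor found on parietal endoderm, was 8.74, 8.78 and 7.70 in cells 4, 8 and 17 but 3.25 in cell 20, and between 3.25 and 4.15 in all 6 others. It was detected in 3 of 4 and 0 of 6 cells (difference 3.54, SE 1.13, limma adjusted p = 0.544, at least 1.31-fold higher). Apoe, an apolipoprotein of the visceral endoderm, went the other way, being above the floor in cell 20 only (7.80) of the 4 and in 5 of 6 others (difference -2.57, adjusted p = 0.618). Snai1, Hhex, Hnf4a, Cited1 and Dkk1 differed by 0.34, 0.34, -0.01, 0.25 and 1.29, each with an unadjusted p above 0.40.

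Genes of glycolysis had the higher mean in 13 of 14 tested members (49.3% of all tested genes did), with a median difference of 0.67 (0.58 with values raised to the floor, and 0.53 with 13 of 14 without cells 6 and 10). Of these, 3 were higher at an unadjusted limma p under 0.05 (3.05% of all tested genes were) and none at the adjusted threshold. Ldha, which turns pyruvate into lactate, was 11.59, 10.61, 11.63 and 12.31 in cells 4, 8, 17 and 20, and 11.48, 8.37, 10.07, 8.87, 9.85 and 11.36 in cells 3, 5, 6, 10, 11 and 15. The sets overlapped through cells 8, 3 and 15 (difference 1.53, SE 0.64, adjusted p = 0.633). Slc16a1, a lactate transporter, was 9.27 ± 0.62 against 7.06 ± 1.73 with the highest value of all in cell 10 (10.12, adjusted p = 0.587). Gapdh, a glycolytic enzyme often used as a reference gene, was 12.99 ± 0.05 against 12.82 ± 0.11 (difference 0.16, SE 0.06, adjusted p = 0.571). Ldhb was the only member with the lower mean (8.51 ± 0.26 against 8.94 ± 0.29). The glucose transporter gene Slc2a1 was 10.04 ± 0.44 against 9.05 ± 1.43. Beside these, 9 of 12 reference genes had the higher mean (49.3% of all tested genes did), with a median of 0.16. Hprt was 11.82 ± 0.20 against 12.03 ± 0.30.

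The mitochondrial lists stayed near 0. Of 20 genes of the TCA cycle 8 had the higher mean (median -0.10), with Dlst at 9.24 ± 0.68 against 10.16 ± 0.19 and Idh2 at 10.06 ± 0.33 against 9.05 ± 0.94. Of 72 genes of oxidative phosphorylation 29 had the higher mean (median -0.07). Cox7a2l, an assembly factor of respiratory supercomplexes, was 11.42 ± 0.15 against 10.83 ± 0.22 without overlap (limma adjusted p = 0.444). Genes of cholesterol and fatty acid synthesis had the lower mean in 16 of 20 tested members (50.7% of all tested genes did), with a median of -0.71. At an unadjusted limma p under 0.05, 0 were lower and 1 was higher (4.45% and 3.05% of all tested genes were). Raising values to the floor reduced the median to -0.24, and leaving out cells 6 and 10 to -0.33. Idi1, an enzyme of the isoprenoid branch, was 5.12 and 4.85 in cells 4 and 20, 8.84 and 7.98 in cells 8 and 17 and 7.06 to 10.36 in the others (difference -1.95, adjusted p = 0.66). Mvd, an enzyme of the same pathway, had the higher mean instead (7.55 ± 0.48 against 6.62 ± 0.51, adjusted p = 0.591), so the list did not move as one. Nucleotide synthesis (9 of 16 higher, median 0.05), ribosome biogenesis (14 of 29, -0.01), ribosomal proteins (21 of 46) and the proteasome (17 of 37, -0.02) showed no common direction. Examples with little spread were Nop56 (12.14 ± 0.04 against 11.95 ± 0.09), Rpl39l (12.68 ± 0.12 against 12.91 ± 0.12) and Psmd1 (11.34 ± 0.28 against 10.66 ± 0.33).

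**Figure D4:**
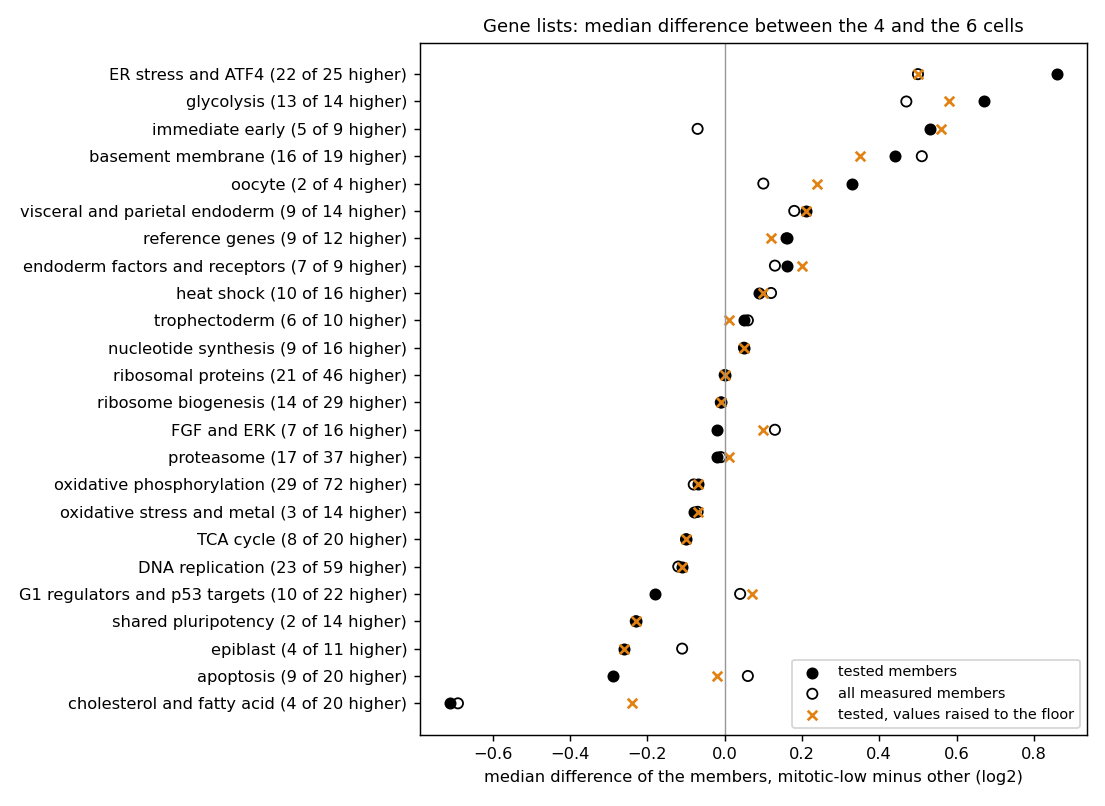
Median difference of the members of each gene list, mitotic-low minus other Fgf4-negative cells (log2), for tested members (filled), all measured members (open) and tested members with values raised to the floor (crosses), with the number of tested members higher in the mean beside each name. ER and Atf4 genes, glycolysis and the basement membrane lie to the right of 0 in all 3 versions, cholesterol and fatty acid synthesis to the left in all 3, and immediate early genes change sign between versions.

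Genes of the pluripotent state that epiblast and primitive endoderm precursors share had the lower mean in 12 of 14 tested members. Over all tested genes, 50.7% did. The median of the list was -0.23, the same with values raised to the floor, and -0.21 without cells 6 and 10. At an unadjusted limma p under 0.05, 2 members were lower (4.45% of all tested genes were) and 0 higher, and none passed the adjusted threshold. Pou5f1 (Oct4), the gene used in the PCR screen, was 9.65, 10.99, 9.94 and 10.16 in cells 4, 8, 17 and 20, and between 10.77 and 11.32 in the others. Cells 4, 17 and 20 were below all 6 others while cell 8 lay among them (difference -0.86, SE 0.26, limma adjusted p = 0.521). Rif1, a regulator of replication timing, was 10.46 ± 0.83 against 11.42 ± 0.31, with the lowest level in cell 4 (9.24, adjusted p = 0.566). Dppa2 was 11.43 and 10.97 in cells 4 and 20 and 12.16 to 12.73 in the remaining 8 cells. Nr5a2, a nuclear receptor, had the higher mean (9.49 ± 1.15 against 8.82 ± 1.60), a sign that turned with the mean of its probe sets.

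Of 16 heat shock genes 10 had the higher mean (median 0.09), with Hsph1 at 12.63 ± 0.28 against 12.35 ± 0.16 and Hspa8 at 12.97 ± 0.10 against 13.08 ± 0.05. Of 14 genes of oxidative stress and metal binding 3 had the higher mean (49.3% of all tested genes did), with a median of -0.08. Txnrd1 was 8.64 ± 0.84 against 9.95 ± 0.62 (limma adjusted p = 0.564), and Txn1 13.05 ± 0.13 against 12.95 ± 0.11. Immediate early genes, which rise quickly when cells are handled, had the higher mean in 5 of 9 tested members with a median of 0.53, but in 9 of 20 measured members with a median of -0.07. Of the 9 tested, 3 were higher at an unadjusted p under 0.05 (3.05% of all tested genes were), namely Myc, Ier2 and Jund. Myc was 10.81, 7.49, 9.49 and 9.66 in cells 4, 8, 17 and 20, and above the floor in cells 6 (8.92), 11 (8.07) and 15 (8.89) of the others (adjusted p = 0.633). In the Fgf4-positive cells Myc was 9.83 ± 1.31, above the floor in all 10. Ier2 was 8.28 ± 0.93 against 6.47 ± 0.94 (adjusted p = 0.544), while Socs3 was lowest in cell 4 (3.43). Leaving out cell 4 raised the median of this list to 1.43.

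Of 20 tested apoptosis genes 9 had the higher mean (median -0.29, and -0.02 with values raised to the floor). At an unadjusted limma p under 0.05, 3 were lower (4.45% of all tested genes were) and 0 higher, and none passed the adjusted threshold. Casp2, an initiator caspase, was 4.73, 8.72, 4.30 and 7.38 in cells 4, 8, 17 and 20, and between 8.44 and 10.59 in the others (difference -3.10, SE 0.84, limma adjusted p = 0.453). Endog, a mitochondrial nuclease, was 8.55 ± 0.77 against 7.68 ± 0.97. Both a gene that promotes death, Diablo (8.06 ± 1.34 against 9.78 ± 0.71), and a gene that restrains it, Mcl1 (10.79 ± 0.78 against 11.61 ± 0.12), had the lower mean. Of 22 G1 regulators and p53 targets 10 had the higher mean (median -0.18, and 0.07 with values raised to the floor), with Ccng1, a p53 target, at 5.21, 10.36, 7.17 and 3.25 in the 4 cells and 8.39 to 11.40 in the 6 (adjusted p = 0.544). Perp was 7.05 ± 0.40 against 6.26 ± 0.46 (adjusted p = 0.658).

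DNA replication genes, which peak before the mitotic genes in the cell cycle, had the lower mean in 36 of 59 tested members (50.7% of all tested genes did), with a median of -0.11. At an unadjusted limma p under 0.05, 8 were lower (4.45% of all tested genes were) and 1 was higher, and none passed the adjusted threshold. Without cell 4 the median was -0.01, with 29 of 59 members higher in the mean. Mcm10, which helps start replication, was 9.03, 8.03, 9.83 and 10.60 in cells 4, 8, 17 and 20, and between 10.54 and 11.16 in the others (difference -1.53, SE 0.44, adjusted p = 0.483). Cell 20 alone reached the range of the others. Cdc6, the loading factor of the replicative helicase, had the higher mean instead (9.86 ± 0.73 against 8.39 ± 1.22, adjusted p = 0.658), with 6.02 in cell 11. Of 16 genes of FGF and ERK signalling 7 had the higher mean (median -0.02). Spry4, a feedback inhibitor of the pathway, was above the floor in all 4 mitotic-low cells (8.62 ± 0.67) and in 3 of 6 others (5.93 ± 1.88, adjusted p = 0.564). Sos1, an activator of Ras, was above it in 0 and 4 cells (5.28 ± 0.38 against 7.84 ± 1.86, adjusted p = 0.564, at least 2.24-fold lower).

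Array measures were compared with an exact permutation test over the 210 ways to divide 10 cells into 4 and 6, which cannot give a two-sided p below 0.00476, and were adjusted over 14 measures. The deposited median intensity was 25.6, 26.8, 25.9 and 26.2 in cells 4, 8, 17 and 20, and between 27.8 and 30.1 in the others. The sets did not overlap (26.1 ± 0.5 against 28.6 ± 0.8, exact p = 0.00476, adjusted p = 0.0333). The share of probe sets at the lower limit of the files was 12.3%, 11.7%, 13.4% and 12.5% in the 4 cells and 10.1% to 11.7% in the 6 (exact p = 0.00476, adjusted p = 0.0333), where cells 8 and 5 are equal as rounded. These 2 measures therefore moved with the sets, with the lower median and the larger share at the limit in the mitotic-low cells. Their part in the results on genes below the floor, such as Alg13 and Rsrc1, was not tested. The array weights of the alternative fit, lower for an array with more spread around the fit, were not among the measures tested. They were 0.795, 0.941, 0.816 and 0.845 in cells 4, 8, 17 and 20. In cells 3, 5, 6, 10, 11 and 15 they were 1.106, 0.876, 1.167, 1.179, 1.221 and 1.19. Among the others, only cell 5 lay within the range of the mitotic-low cells. The number of genes above the floor did not separate the sets, at 7578 ± 305 against 7502 ± 454 (exact p = 0.79), a sign that turned with the 90th percentile as floor. The trimmed mean was 206.0 ± 4.8 against 206.0 ± 3.1.

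Among the spiked-in control transcripts, Lys was 12.22 ± 0.26 against 11.89 ± 0.12 (exact p = 0.0238, adjusted p = 0.111), and Phe 8.17 ± 1.02 against 6.70 ± 1.14 (exact p = 0.0714, adjusted p = 0.20). Lys was highest in cells 4 (12.52) and 17 (12.35). The hybridisation controls were 10.60 ± 0.13 against 10.38 ± 0.15 (exact p = 0.0333, adjusted p = 0.117). Lys minus the hybridisation controls was 1.62 ± 0.31 against 1.51 ± 0.16 (exact p = 0.529). When the controls were added is not given in the sources used here, so the control levels are not read as amounts of RNA. The difference between 3′ and 5′ probe sets, a measure of how far along the transcripts the cDNA reached, was 3.27 ± 0.57 against 3.35 ± 0.12 for Actb (exact p = 0.762) and 1.94 ± 0.63 against 2.15 ± 0.46 for Gapdh (exact p = 0.571).

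**Figure D5:**
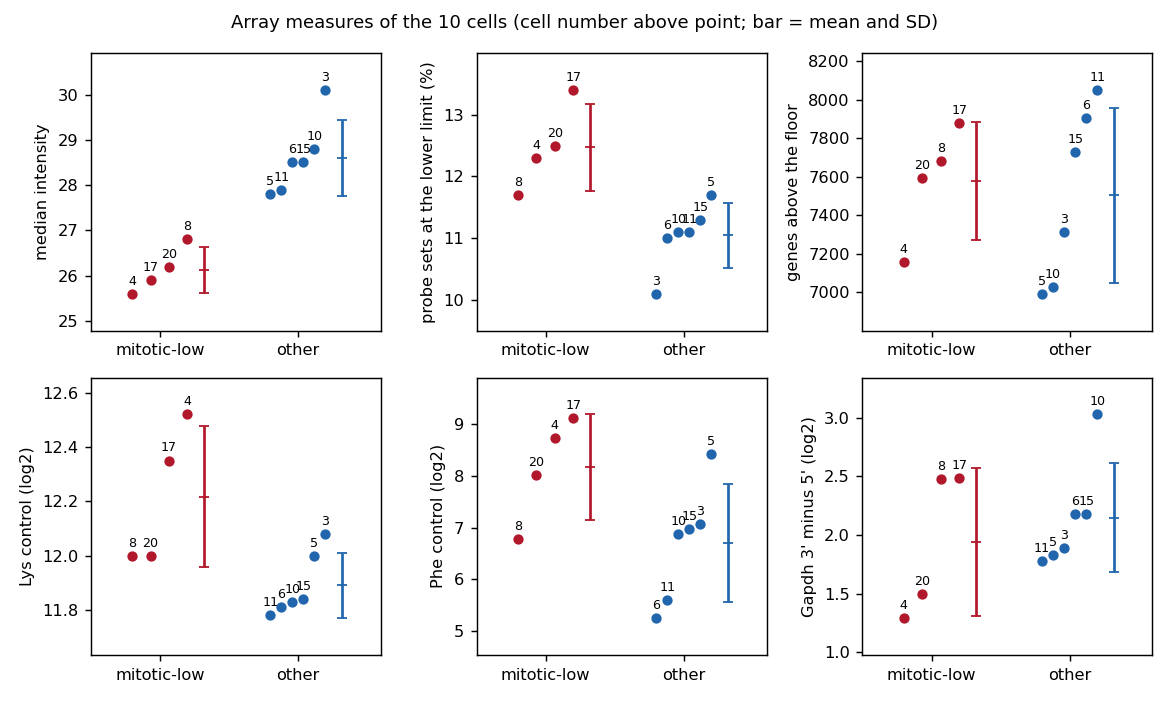
Array measures of the 4 mitotic-low (red) and 6 other Fgf4-negative cells (blue), with cell numbers above the points and bars for mean and SD. The median intensity lies between 25.6 and 26.8 in the red cells and between 27.8 and 30.1 in the blue, while the number of genes above the floor and the Gapdh 3′ minus 5′ difference overlap.

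The mitotic-low cells also resembled each other less than the others did. Over the 9167 tested genes, the mean Pearson correlation of a mitotic-low cell with the other mitotic-low cells was 0.574 to 0.585, and that of another Fgf4-negative cell with its own set 0.626 to 0.647. With the other set, the means of cells 4, 8, 17 and 20 were 0.577, 0.62, 0.597 and 0.584. With their own set they were 0.578, 0.583, 0.574 and 0.585. Cells 8 and 17 thus correlated more with the other set than with their own, and cells 4 and 20 about equally with both. For the other Fgf4-negative cells the mean correlation with the mitotic-low cells was 0.584 to 0.609. These are descriptions across genes, which are not independent replicates, and the points share the arrays and their floors.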

How the data were processed

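Each Affymetrix array was hybridised with the amplified cDNA of 1 cell. Per the labels' protocols, the lysate of a cell went into cDNA synthesis and PCR unpurified, and biotinylated cRNA was made by the one-cycle Affymetrix assay. Values were deposited as linear intensity per probe set, never below 1, and how the authors summarised and normalised them is not given in the sources used here. Trimmed means (2%) ran from 178.8 to 216.7, so arrays were quantile-normalised. Intensity was used as log2(intensity + 8.49), the median 25th percentile of the arrays.

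Of 45101 probe sets, 64 were controls, 34958 had 1 gene in the platform annotation, 932 had several and 9147 were not listed. RefSeq (GRCm38.p6) matched 34754. The probe set with the highest mean over 20 cells stood for a gene (18194 genes). Precision is limited by how many arrays there were and how far a signal exceeded the floor.

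The members and gene lists were chosen with earlier results of these data known. Of 136 measured mitotic genes, 125 passed the filter on low values and were described only. The gene test was that of limma 3.58.1 (R 4.3.3, lmFit, eBayes with trend, two-sided, Benjamini-Hochberg at 0.05 over 9167 genes), and the step was tested on simulated data. Named were Fgf4, Top2a and Ube2c, tested endoderm factors and receptors, the 10 genes with the smallest p on each side, and the members of every other list with the highest and lowest moderated t. All other genes named were chosen after their values were seen, to show members of a list. Fold bounds compare a set's mean with the mean floor of the arrays where the gene was not detected. Array measures used exact permutation tests (scipy 1.17.1). Alternatives were the deposited values, another pseudocount, other filters and floors, averaging the probe sets of each gene, all 20 cells in the fit, array weights and leaving out cells.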

Additional observations from a re-analysis of the deposited data

Results flagged for a closer look

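In 234 sets of values (genes named above, list scores and array measures, each in the 4 mitotic-low or the 6 other cells), 22 had a cell far from the rest of its set by Dixon's criterion at the 95% level. For normally distributed values, chance alone gives about 1 in 20 such sets. Several sets here lie under the floor and many genes were named for their extreme values, so the count cannot be compared with that rate.

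Cell 6 accounted for 4 of these, all on the low side of the endoderm genes: Fgfr2 at 4.22, Foxq1 at 3.25, Gata6 at 10.63, and a score of the endoderm factors and receptors of -1.57 (log2, centred on the 10 cells). Among the other Fgf4-negative cells, cell 15 stood apart in Fgf4 (3.77, far under the floor) and in Tafa5 (6.67), cell 11 in Fzd7 (3.91, under the floor) and in Cdc6 (6.02). Cell 3 stood apart in Zfp507 (7.81) and cell 10 in Lrch3 (8.08), each the only cell of its set with the transcript above the floor. Cell 10 had a Gapdh 3′ minus 5′ difference of 3.03, the highest of its set. Cell 5 had an Actb difference of 3.58 and a ribosomal protein score of -0.10.

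Among the mitotic-low cells, cell 4 had the lowest Sox17 (10.70), the lowest Socs3 (3.43) and the only Ddit3 level above the floor (8.32). Cell 8 had the highest Fgf4 (3.36) and Atg4d (4.64), both under the floor, and the lowest Hsph1 (12.22). Cell 17 had the lowest Ooep (4.82) and the highest Txnrd1 (9.89), and cell 20 the highest Caap1 (4.64, under the floor).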

How the results depend on the processing

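Few genes passed the adjusted threshold, so their number changed with the setting. Higher in mitotic-low cells were 0 genes as reported, 1 with the 10th percentile as pseudocount, with averaged probe sets, with all 20 cells in the fit and without cells 6 and 10, and 2 with no filter on low values and with the filter over 20 cells. Lower were 2 as reported, 5 with the deposited values and with all 20 cells in the fit, 6 with the 10th percentile as pseudocount, 4 with no filter, with the filter over 20 cells and with averaged probe sets, and 0 with values raised to the floor and with a filter on the mean level. Leaving out 1 cell at a time gave 0 to 4 higher and 2 to 17 lower. With no filter, 628 genes were higher at an unadjusted p under 0.05 and fewer were lower, the reverse of the order reported. The cause of these changes was not tested.

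The medians of the lists of ER and Atf4 genes, glycolysis, basement membrane and endoderm factors stayed above 0, and those of DNA replication, shared pluripotency and cholesterol and fatty acid synthesis below 0, in 20 of 20 settings. They ranged from 0.39 to 1.01 for ER and Atf4 genes, 0.43 to 1.05 for glycolysis, 0.24 to 0.72 for basement membrane, 0.09 to 0.57 for endoderm factors, -0.25 to -0.01 for DNA replication, -0.32 to -0.14 for shared pluripotency and -0.88 to -0.24 for cholesterol and fatty acid synthesis. Other lists kept their sign in 20 of 20 settings as well. These were reference genes (0.08 to 0.18), heat shock genes (0.06 to 0.15) and markers of later endoderm (0.04 to 0.53). The TCA cycle (-0.14 to -0.04) and oxidative phosphorylation (-0.08 to -0.02) stayed below 0. The settings share most of the same cells, so a kept sign does not mark a list out. The median of G1 regulators and p53 targets was 0.12 with the filter over 20 cells and -0.23 to 0.14 without 1 cell. That of immediate early genes was 0.10 to 1.43 without 1 cell. That of the epiblast markers ran from -0.81 to 0.07 and was above 0 in 3 of 20 settings.

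Several small differences changed sign. Averaged probe sets gave 0.30 for Foxq1, -0.08 for Gata6, -0.01 for Pdgfra, -0.63 for Nr5a2, 0.31 for Dlst and -0.31 for Gmps. Foxq1 was 0.80 with values raised to the floor, Lrp2 -0.03 with the deposited values and Gata6 -0.09 without cells 6 and 10. Without 1 cell the ranges were -1.68 to 0.94 for Foxq1, -0.08 to 0.26 for Gata6, -0.71 to 0.57 for Lrp2, -0.34 to 0.12 for Sox17, -2.39 to 0.16 for Socs3 and -1.28 to 0.15 for Ddit3.

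Of the array measures, the difference in median intensity ranged from -2.71 to -2.19 without 1 cell and was -2.46 without cells 6 and 10. That in the share at the lower limit ranged from 1.12 to 1.70 without 1 cell, was 1.44 without cells 6 and 10, and 1.44 after quantile normalisation (exact permutation test, adjusted p = 0.0619). With fewer cells the exact test has fewer splits, so its smallest possible p rises and lost calls say nothing about stability. With the floor at the 90th percentile the differences were 1.42 in the floor, -1.86 points in the share of probe sets above it and -428.33 in the number of genes above it. Without cells 6 and 10 the Gapdh 3′ minus 5′ difference was 0.02. Without 1 cell the ranges were -0.03 to 0.21 for Lys minus hybridisation controls, 0.23 to 0.40 for Lys, -0.34 to 0.24 for Dap, -0.39 to 0.01 for Gapdh, -0.31 to 0.13 for Actb, -1.24 to 2.3 for the trimmed mean, -0.13 to 0.96 points for the share and -26.35 to 216.33 for the number of genes above the floor. Median and trimmed mean were not compared after quantile normalisation, which makes them equal. No paired analysis was possible because the labels hold 1 group with no shared replicate numbers. Genes under the floor have no measured level, which limits every difference in which a set lies there.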
